A study of Mus musculus with 10 samples.

Results

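The genes described here are 49 genes of central carbon metabolism, taken by symbol from a table of 56893 genes. They encode 2 glucose transporters, 17 glycolytic enzymes, 4 proteins that make or move lactate, 10 that carry pyruvate into the mitochondrion or govern its use there, 7 enzymes of the pentose phosphate pathway and 9 subunits or enzymes of the citrate cycle. All 49 symbols were found. RNA with poly(A) tails had been sequenced from primary T and B cells of mouse spleen. The P1 promoter of Pou2f1 was targeted in T cells with the guide sgRNA-P1. In B cells the P1 or the P2 promoter was targeted with sgRNA-P1 or sgRNA-P2. The controls were mock T and mock B cells. Pou2f1 encodes Oct-1, a transcription factor that binds an octamer motif and has been linked to glucose metabolism. The method was CRISPR interference, in which a Cas9 that no longer cuts DNA is led by a guide RNA to a promoter and lowers its activity. The labels do not give the mouse strain, sex or age, the way the cells were selected, what the mock cells received or how long the guides were present.

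Glycolysis splits glucose into pyruvate, first spending ATP and then returning it. Pyruvate is either reduced to lactate, which leaves the cell through monocarboxylate transporters, or enters the mitochondrion, where the pyruvate dehydrogenase complex feeds it to the citrate cycle; the pyruvate dehydrogenase kinases switch that complex off. The pentose phosphate pathway branches off glucose 6-phosphate and yields NADPH and ribose. Resting lymphocytes are known to burn fuel mainly in their mitochondria and to turn to glycolysis and lactate when activated.

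Each of the 5 groups had 2 deposited columns labelled as replicates. In every group these differed by far less than the sampling noise, with a mean chi-square per gene of 0.00231 to 0.00283 over genes with 20 or more reads, so they were summed and counted as 1 library. The 5 libraries held 28118839 to 71858511 reads. With 1 library per group, no single comparison has a replicate check, and the intervals given in brackets are 95% intervals that cover counting error only. The 1 test that the design allowed was a fit over all 5 libraries with a term for cell type and a term for carrying either guide (edgeR's quasi-likelihood test, 2 residual degrees of freedom, Benjamini-Hochberg adjustment over 17581 genes). The labels do not say whether the cells came from separate animals or cultures, so its p-values measure only the spread between these libraries. Levels are in CPM, the reads of a gene per 1000000 reads of its library after TMM scaling. The labelled cell types fitted their markers: 10 T cell markers summed to 5020 and 5073 CPM in T cells and 48.5 to 49.9 CPM in B cells, while 10 B cell markers summed to 348 and 367 CPM in T cells, 323 and 341 CPM of it from Ighm. Markers of other cells also differed between the cell types. The 6 NK cell markers summed to 106 and 104 CPM in T cells, mostly Nkg7 and Eomes with Ncr1 at most 0.222 CPM, against 0.569 to 0.975 CPM in B cells. The 4 plasma cell markers summed to 66.6 and 68.2 CPM in T cells, against 193 to 204 CPM in B cells, with Jchain at 0.952 and 1.11 CPM in T cells and 99.0 to 106 CPM in B cells. The 10 myeloid markers summed to 11.1 and 10.2 CPM in T cells, against 27.5 to 28.9 CPM in B cells, and the 4 stromal markers, nearly all Pecam1, to 231 and 238 CPM, against 334 to 349 CPM. The 4 platelet markers summed to 6.46 and 5.55 CPM in T cells, against 2.32 to 2.88 CPM in B cells, nearly all Itga2b with Pf4 at 0. The 5 dendritic markers summed to 5.80 to 9.05 CPM and the 6 erythroid markers to at most 2.07 CPM in any library. The part of these cells in the differences between T and B cells was not tested. In such bulk samples, fewer cells of a type and less RNA per cell cannot be told apart.

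Single genes of central carbon metabolism differed between T and B cells, about as often as genes at large, and no gene was 1.5-fold apart between a guide library and its mock. T cells carried more transcript of hexokinase 1, the platelet and muscle phosphofructokinases, enolase 1, pyruvate kinase, both lactate dehydrogenases, the lactate transporter Slc16a1 and pyruvate dehydrogenase kinase 1. B cells carried more hexokinase 2, aldolase C and fumarase. Of the pentose phosphate enzymes, Pgls and Rpia were 1.5-fold or more higher in mock B than in mock T cells. The Pgls difference is uncertain because the gene shares bases with Niban3, and Rpia missed that size between the sgRNA-P1 libraries. Summed over the 17 glycolytic enzymes the level was 2014 CPM in T cells with sgRNA-P1 and 2048 CPM in mock T cells, against 1425, 1445 and 1474 CPM in B cells with sgRNA-P1, with sgRNA-P2 and in mock B cells. The 7 pentose phosphate enzymes summed to 456 and 482 CPM in those T cells, against 563, 584 and 590 CPM in those B cells. Pgls made up 37.2 and 39.9 CPM of these sums in T cells, against 74.7, 79.8 and 85.5 CPM in B cells. The 9 citrate cycle genes summed to 992 and 1023 CPM in T cells and to 1011, 1025 and 1046 CPM in B cells, so the groups overlapped for this pathway alone among the 3.

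Among the 49 genes, 46 reached 5 CPM in mock T or mock B cells. Of these, 11 were 1.5-fold or more higher in mock T cells (18.6% of all genes at that level were) and 5 were 1.5-fold or more lower (18.4% of all genes). In all, 34.8% of the 46 genes passed this size rule, against 37% of all genes, so as a set they were no more divided between the cell types than genes at large. Their median log2 fold change was 0.06, beside 0.02 over all genes. The T and B libraries with sgRNA-P1 form a second pair that shares no library with the mock pair. In that pair 12 genes passed higher in T cells (20% of all genes) and 4 lower (19.6%), together 34.8% of 46 against 39.6% of all genes. In both pairs 15 of the genes passed the size rule in the same direction, 11 higher (17% of all genes) and 4 lower (16.9%). Apart from Ldhb, the log2 fold changes of the 2 pairs differed by a median of 0.0972 and at most by 0.50, for Eno2. In the fit over 5 libraries, 20 of the 48 genes tested were higher in T cells (32.4% of all genes tested) and 17 were lower (31.8%), at an adjusted p below 0.05 by edgeR's quasi-likelihood test. Of these calls, 27 held with the same direction in all 9 settings tried, 17 of them higher in T cells and 10 lower. The share of all genes that held so was not computed.

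**Figure D1:**
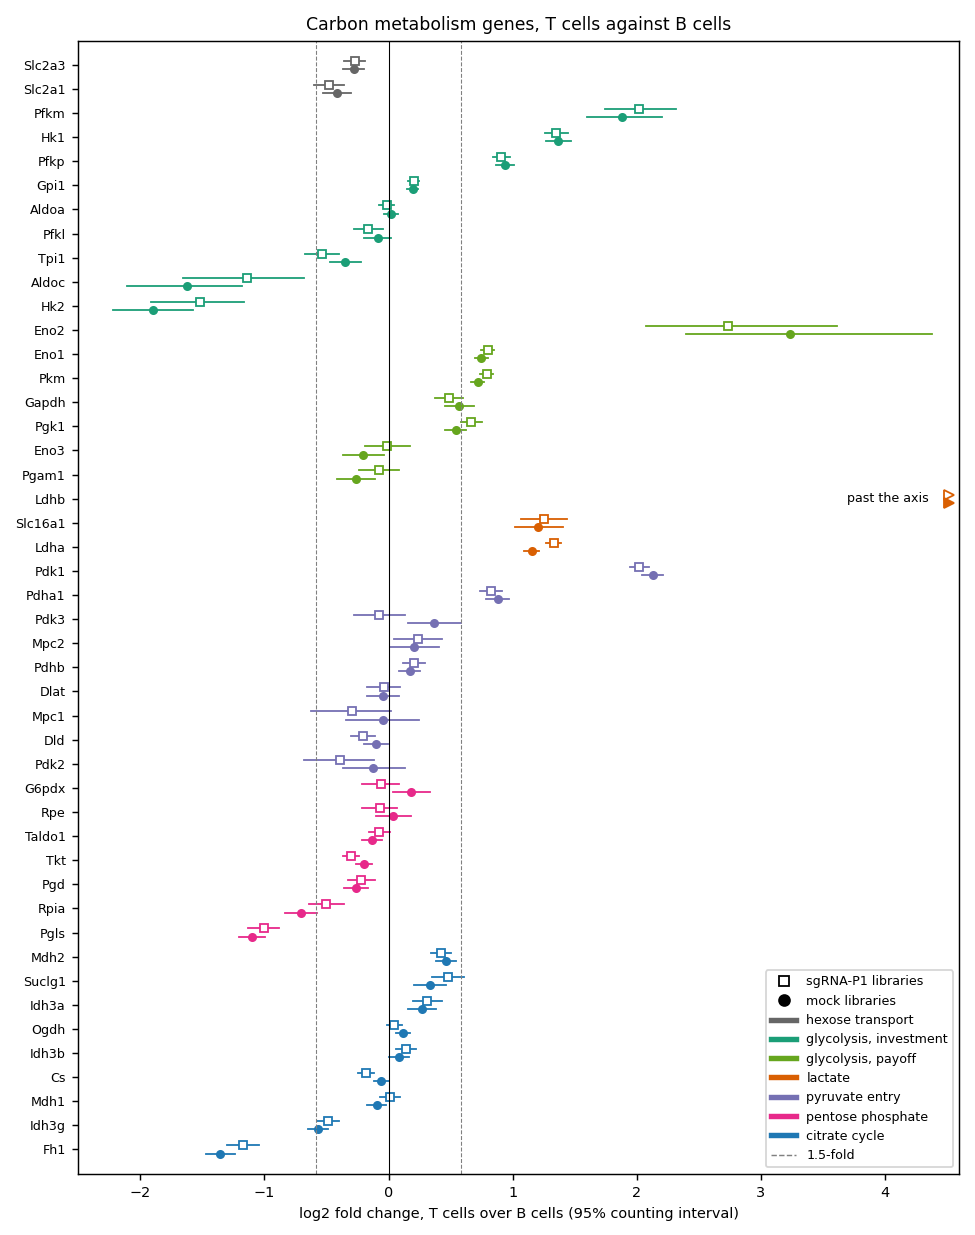
Log2 fold change of T over B cells (horizontal axis) for the 46 genes at 5 CPM, with 95% counting intervals, for the sgRNA-P1 libraries (open squares) and the mock libraries (filled circles), coloured by role; dashed lines mark 1.5-fold. Hk1, Pfkm, Eno2, Ldhb, Slc16a1 and Pdk1 lie right of the upper line in both pairs, and Hk2, Aldoc, Pgls and Fh1 lie left of the lower line; Ldhb runs past the axis.

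Both glucose transporters were lower in T cells. Slc2a1, which encodes GLUT1, the transporter induced when lymphocytes are activated, had 45.0 and 47.0 CPM in T cells with sgRNA-P1 and mock T cells, against 62.7, 63.9 and 62.5 CPM in B cells with sgRNA-P1, with sgRNA-P2 and in mock B cells. Slc2a3, which encodes the high-affinity transporter GLUT3, had 91.0 and 93.7 CPM in those T cells, against 110, 120 and 114 CPM in those B cells. Every T library lay below every B library for both genes. The share of all genes separated so was not computed, and the edgeR fit called 31.8% of all genes tested lower in T cells. The cell type term gave log2 -0.47 for Slc2a1 (adjusted p = 4.244e-06) and -0.33 for Slc2a3 (adjusted p = 9.198e-05) by edgeR's quasi-likelihood test, and neither reached 1.5-fold.

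In the ATP-consuming steps, 4 of 10 genes were higher in T cells and 4 lower in the edgeR fit, which called 32.4% of all genes higher and 31.8% lower. The hexokinases, which trap glucose as glucose 6-phosphate, moved against each other. Hk1, the form found in most tissues, had 142 CPM in T cells with sgRNA-P1 and 146 CPM in mock T cells, against 55.7, 56.4 and 56.6 CPM in B cells with sgRNA-P1, with sgRNA-P2 and in mock B cells, a log2 fold change of 1.37 [1.27 to 1.47] between the mock libraries. Hk2, the inducible form, had 3.93 and 3.52 CPM in those T cells, against 11.3, 10.8 and 13.2 CPM in those B cells, a log2 fold change of -1.90 [-2.22 to -1.58]. Neither gene's T and B libraries overlapped, and the cell type term gave adjusted p = 2.594e-12 for Hk1 and 2.356e-08 for Hk2 by edgeR's quasi-likelihood test. The share of all genes whose libraries lay apart so was not computed. Hk3, known best from myeloid cells, stayed between 0.680 and 1.18 CPM in every library, so it overlapped between the cell types. Of the myeloid markers, Tyrobp and Adgre1 were higher in B cells and Itgam in T cells, and their part in its level was not tested.

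Phosphofructokinase commits sugar to glycolysis, and its forms were also divided. Pfkm, the muscle form, had 22.9 and 23.1 CPM in T cells with sgRNA-P1 and mock T cells, against 5.62, 6.33 and 6.24 CPM in B cells with sgRNA-P1, with sgRNA-P2 and in mock B cells. Pfkp, the platelet form, had 204 and 206 CPM in those T cells, against 109, 116 and 107 CPM in those B cells. The log2 fold changes between the mock libraries were 1.88 [1.60 to 2.20] for Pfkm and 0.94 [0.86 to 1.01] for Pfkp, while Pfkl, the liver form, stood at -0.09 [-0.20 to 0.02], with 52.7 and 56.5 CPM in T cells and 59.0, 59.2 and 60.1 CPM in B cells. The liver form was the closest to even between the cell types. Of the next enzymes, Aldoc, the brain form of aldolase, had 2.53 and 1.87 CPM in T cells, against 5.62, 6.08 and 5.79 CPM in B cells. Aldoa, the main form, had 221 and 230 CPM in T cells and 224, 222 and 227 CPM in B cells, so the cell types overlapped. Gpi1, the isomerase after hexokinase, was higher in T cells by log2 0.17 and Tpi1, which interconverts the triose phosphates, was lower by -0.46 (adjusted p = 0.004585 and 2.181e-05 by edgeR's quasi-likelihood test); the call of Gpi1 held in 7 of 9 settings.

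In the ATP-yielding steps, 5 of 7 genes were higher in T cells in the edgeR fit, which called 32.4% of all genes higher. All 5 were called so in every setting tried. Pgam1, the mutase between them, was called lower, but in only 2 of 9 settings. Eno1, the main enolase, had 341 and 360 CPM in T cells with sgRNA-P1 and mock T cells, against 196, 208 and 214 CPM in B cells with sgRNA-P1, with sgRNA-P2 and in mock B cells. Eno2, the neuronal form, had 5.23 and 5.84 CPM in those T cells, against 0.768, 0.427 and 0.591 CPM in those B cells, a log2 fold change of 3.24 [2.39 to 4.38] between the mock libraries. Eno3, the muscle form, overlapped between the cell types, at 22.8 and 24.0 CPM in T cells and 23.0, 24.5 and 27.7 CPM in B cells. Pgk1, the first ATP-forming enzyme, was higher in T cells by log2 0.54 [0.46 to 0.63] between mock libraries and by 0.67 between the sgRNA-P1 libraries, on either side of the size rule. Gapdh, which oxidises the triose phosphate, had 66.7 and 70.3 CPM in T cells, against 47.6, 48.6 and 47.4 CPM in B cells. In GENCODE M21, 78 other genes match Gapdh over at least 200 bases at 95% identity or more; 76 of them were in the table, with at most 11.4 CPM in all, and the labels do not say how reads that fit several genes were counted, so the level of Gapdh is uncertain.

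Pyruvate kinase makes the last ATP of glycolysis. Pkm had 393 CPM in T cells with sgRNA-P1 and 369 CPM in mock T cells, against 227, 212 and 224 CPM in B cells with sgRNA-P1, with sgRNA-P2 and in mock B cells. The mock libraries gave a log2 fold change of 0.72 [0.67 to 0.77], and the cell type term was 0.77 (adjusted p = 3.575e-09 by edgeR's quasi-likelihood test). Subtracting a trend with gene length and GC content across all genes took Pkm to 0.37 and Eno1 to 0.40, below the size rule, and took no other of the 16 genes below it.

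All 4 genes of lactate handling were higher in T cells in the edgeR fit, which called 32.4% of all genes higher. They were called so in every setting tried. Ldha encodes the subunit of lactate dehydrogenase best known for turning pyruvate into lactate. It had 334 CPM in T cells with sgRNA-P1 and 333 CPM in mock T cells, against 133, 145 and 150 CPM in B cells with sgRNA-P1, with sgRNA-P2 and in mock B cells. Ldhb, the heart subunit, had 30.4 and 28.8 CPM in those T cells. In B cells it had 1 read with sgRNA-P1 (0.0208 CPM), none with sgRNA-P2 and none in mock. Against a floor of 3 reads in the mock B library, its level in mock T cells was 325-fold higher, a value set by the floor. The 95% counting interval, taken on read pairs, allowed less and began at a log2 fold change of 7.04. That start lay above the interval of every other gene of the 49 but Pdk4, which has too few reads for one. Slc16a1, the monocarboxylate transporter MCT1, had 35.5 and 36.2 CPM in T cells, against 14.9, 14.5 and 15.7 CPM in B cells. Slc16a3, the lactate exporter MCT4, stayed below 5 CPM everywhere, at 3.81 and 3.51 CPM in T cells and 0.788, 0.640 and 0.680 CPM in B cells. It shares 306 bases on the opposite strand with Csnk1d, a kinase gene at 159 CPM in mock T cells, and the strand setting of the counting is not given, so reads of the pair cannot be told apart. Pfkp, Pdha1, G6pdx, Mpc1 and Rpe likewise share 418 to 748 bases with a gene on the opposite strand.

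Because the 2 lactate dehydrogenase genes separated the cell types so differently, the sequences around their starts are shown, from RefSeq on GRCm38.p6, from 250 bases before to 50 after the start. Capitals mark the letters ACGTG or, on the other strand, CACGT, the core of the element bound by hypoxia-inducible factors, which also lies inside the E-box CACGTG bound by Myc. This search was chosen after the data had been seen.
Ldha, chr7:46845554-46845853, plus strand: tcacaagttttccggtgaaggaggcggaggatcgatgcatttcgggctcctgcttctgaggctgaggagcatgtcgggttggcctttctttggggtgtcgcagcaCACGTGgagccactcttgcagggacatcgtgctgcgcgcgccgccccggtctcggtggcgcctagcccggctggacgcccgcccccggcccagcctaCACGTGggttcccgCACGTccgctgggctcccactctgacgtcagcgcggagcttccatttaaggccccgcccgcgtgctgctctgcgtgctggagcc
Ldhb, chr6:142507908-142508207, minus strand: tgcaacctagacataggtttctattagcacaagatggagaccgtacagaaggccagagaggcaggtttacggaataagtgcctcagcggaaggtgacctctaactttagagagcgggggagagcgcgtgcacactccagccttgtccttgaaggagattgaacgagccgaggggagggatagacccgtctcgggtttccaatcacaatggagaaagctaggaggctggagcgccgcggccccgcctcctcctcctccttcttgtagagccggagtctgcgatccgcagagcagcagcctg
The Ldha window held 3 marked stretches, 2 of them the full E-box, and the Ldhb window held none. A further RefSeq start of Ldha, at chr7:46846832-46847131, held none. Over the 67 windows found for 47 of the genes, 28 windows (41.8%) of 21 genes held the core, against 19.6% of 32851 windows of all genes. The full E-box lay in 7 windows (10.4%) of 5 genes, against 7.15% of all windows. The octamer ATGCAAAT that Oct-1 binds, or its reverse complement ATTTGCAT, lay in none of the 67 windows, against 1.74% of all. With so low a share over all windows, its absence from 67 says little. The shares were not matched for CG pairs, and the letters ACGTG hold such a pair. The Ldha window with matches held 30 CG pairs, the further Ldha window 13 and the Ldhb window 17. A match describes letters in these windows and does not show a bound site.

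**Figure D2:**
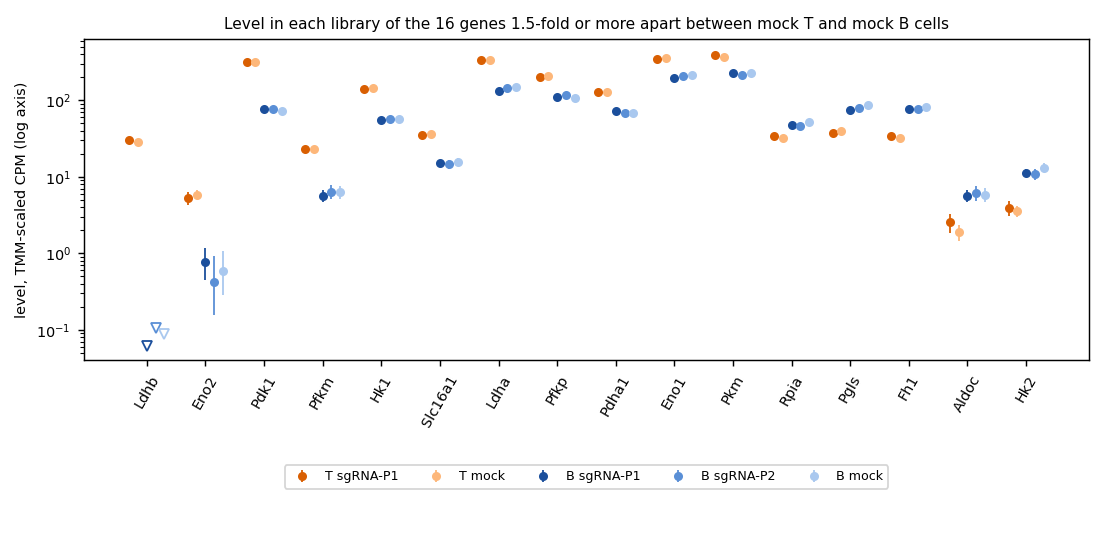
Level in each library, in TMM-scaled CPM on a log axis, of the 16 genes that were 1.5-fold or more apart between mock T and mock B cells, with 95% counting intervals; open triangles stand at the floor of 3 reads. The 2 T libraries lie apart from the 3 B libraries for every gene shown, and within a cell type the guide and mock libraries lie close together. The genes were picked by the mock libraries, so their separation was partly set in advance.

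Among genes of pyruvate entry, 4 of 9 tested were higher in T cells and 2 lower in the edgeR fit, near the 64.2% of all genes called in either direction. Pdk1, the kinase that switches off pyruvate dehydrogenase and is a known target of hypoxia-inducible factor, had 314 CPM in T cells with sgRNA-P1 and 320 CPM in mock T cells, against 77.3, 75.9 and 73.3 CPM in B cells with sgRNA-P1, with sgRNA-P2 and in mock B cells. The mock libraries gave a log2 fold change of 2.13 [2.04 to 2.21], and the cell type term gave adjusted p = 1.274e-14 by edgeR's quasi-likelihood test. Pdha1, the subunit that Pdk1 phosphorylates, was higher too, at 128 and 127 CPM in those T cells, against 72.0, 67.4 and 69.1 CPM in those B cells. Kinase and substrate were thus both higher in T cells. The other subunits of the complex stood close together between mock libraries, with log2 fold changes of 0.17 for Pdhb, -0.05 for Dlat and -0.10 for Dld. The mitochondrial pyruvate carrier genes did so as well, at -0.05 [-0.34 to 0.25] for Mpc1 and 0.21 [0.01 to 0.41] for Mpc2. Pdk2, a further kinase of the complex, had 8.69 and 11.1 CPM in T cells and 11.4, 13.7 and 12.1 CPM in B cells. It was lower in T cells by log2 -0.35 (adjusted p = 0.02125 by edgeR's quasi-likelihood test), a call made in 6 of 9 settings. Pdk3, another, had 17.5 and 18.5 CPM in T cells and 18.5, 15.9 and 14.3 CPM in B cells, so the cell types overlapped. Pdk4, induced by fasting in other tissues, had 1 read in mock T cells and none in any other library.

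Of the 7 pentose phosphate genes among the 49, none was called higher in T cells and 5 were called lower in the edgeR fit. It called 32.4% of all genes higher and 31.8% lower. The calls of 3 of them (Pgls, Pgd and Rpia) held in every setting tried. Pentose phosphate genes outside the 49 went the other way, with 4 of 7 tested called higher in T cells and 0 lower. Pgls encodes the lactonase of the oxidative branch. It had 37.2 and 39.9 CPM in T cells with sgRNA-P1 and mock T cells, against 74.7, 79.8 and 85.5 CPM in B cells with sgRNA-P1, with sgRNA-P2 and in mock B cells. Pgls shares 776 bases, 20.6% of its length, on the same strand with Niban3, a gene with 5.89 and 5.91 CPM in those T cells and 136, 155 and 149 CPM in those B cells. The part of Niban3 reads in the Pgls difference was not tested, and that difference is uncertain. Rpia, which makes ribose 5-phosphate, had 33.8 and 32.1 CPM in T cells, against 47.9, 45.7 and 52.5 CPM in B cells. Its log2 fold change was -0.71 [-0.84 to -0.58] between mock libraries and -0.50 between the sgRNA-P1 libraries, where it missed the size rule. G6pdx, the gate of the pathway, overlapped between the cell types, at 33.5 and 35.5 CPM in T cells and 35.0, 32.3 and 31.2 CPM in B cells. Tkt, the transketolase, was lower in T cells by log2 -0.28 (adjusted p = 0.0001751 by edgeR's quasi-likelihood test), in 8 of 9 settings.

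The citrate cycle split evenly, with 3 of 9 genes higher in T cells, 3 lower and 3 not called in the edgeR fit, again near the 64.2% of all genes called. Fh1, which encodes fumarase, stood apart from the rest of the cycle. It had 33.8 and 31.7 CPM in T cells with sgRNA-P1 and mock T cells, against 76.3, 76.0 and 81.0 CPM in B cells with sgRNA-P1, with sgRNA-P2 and in mock B cells. The mock libraries gave a log2 fold change of -1.36 [-1.47 to -1.24], and the cell type term gave adjusted p = 9.028e-11 by edgeR's quasi-likelihood test. The other 8 genes of the cycle stayed within 1.5-fold. The nearest to that size were Idh3g, the gamma subunit of isocitrate dehydrogenase, at -0.57 [-0.65 to -0.49] and Mdh2, the mitochondrial malate dehydrogenase, at 0.46 [0.38 to 0.54]. The subunits of isocitrate dehydrogenase thus differed in direction, with the catalytic subunit gene Idh3a higher in T cells by log2 0.26 and Idh3g lower by -0.55 (adjusted p = 0.001311 and 1.744e-07 by edgeR's quasi-likelihood test).

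Several of these proteins come in alternative forms, so the share of each form in its family was computed from reads per kilobase of gene length. Of the 8 families, phosphofructokinase was the only one whose leading gene differed between mock T and mock B cells. Pfkp made up 50.8% and 49.96% of it in T cells with sgRNA-P1 and mock T cells, and Pfkl led in B cells with 47.5%, 45.7% and 47.7% with sgRNA-P1, with sgRNA-P2 and in mock. Pfkp was close behind there at 43.5%, 44.6% and 42.5%. With sgRNA-P2 the 2 counting intervals overlapped, from 43.6% to 47.7% for Pfkl and from 42.6% to 46.6% for Pfkp. Without division by length Pfkp led in both cell types. Hk1 was 94.5% and 95.4% of hexokinase in T cells, against 75.2%, 76.7% and 73.5% in B cells, where Hk2 took 21.0% to 24.4%. Pdk1 was 80.8% and 79.3% of the pyruvate dehydrogenase kinases in T cells, against 47.9%, 48.1% and 50.01% in B cells, where Pdk2 and Pdk3 took the rest. Ldhb was 16.1% and 15.4% of lactate dehydrogenase in T cells, against 0.0329%, 0% and 0% in B cells. The 95% counting interval for mock T cells ran from 14.6% to 16.3%, and the exact binomial upper limits were 0.38% for B cells with sgRNA-P2 and 0.31% for mock B cells. These shares and limits depend on the gene lengths used, 3310 bases for Ldha and 1570 for Ldhb. Without division by length, mock T cells had 24028 reads of Ldha and 2078 of Ldhb. The family totals also differed. Lactate dehydrogenase summed to 122 and 119 CPM per kilobase in T cells, against 39.5, 43.7 and 45.3 in B cells, while aldolase summed to 61.3 and 62.7 in T cells and 60.9, 61.8 and 62.9 in B cells. For none of these families did a guide library change its leading gene.

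**Figure D3:**
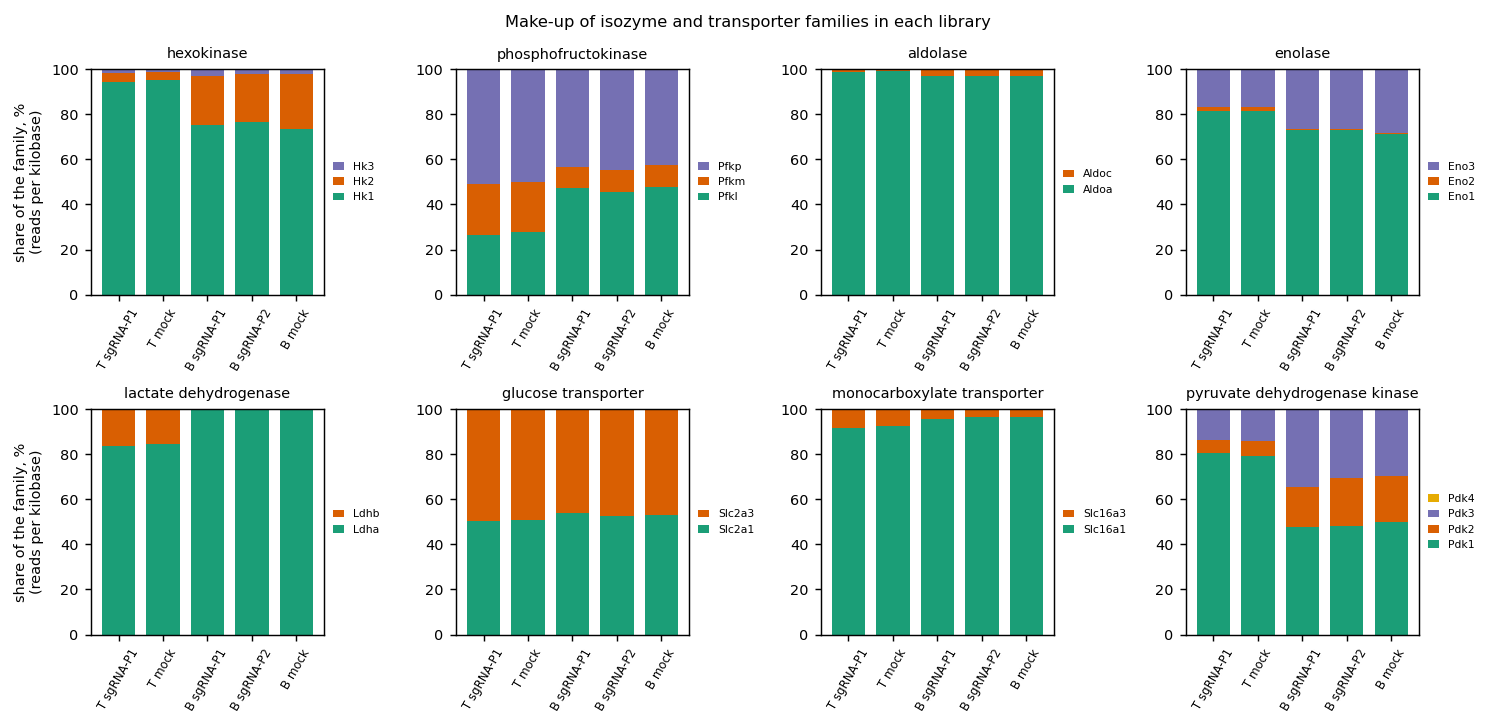
Share of each gene in the summed reads per kilobase of its family (vertical axis, percent) in each of the 5 libraries, for 8 families. The T bars differ from the B bars most for hexokinase, phosphofructokinase, lactate dehydrogenase and pyruvate dehydrogenase kinase, and glucose transporter and aldolase bars look alike, with Slc2a1 at 50.5% to 54.1% in every library.

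Genes around the same pathways that are not among the 49 were counted in the mock pair, where 18.6% of all genes at 5 CPM passed the size rule higher in T cells and 18.4% lower. Of 14 other glycolysis genes at 5 CPM, 5 passed the size rule higher in T cells and 3 lower. Galm, which interconverts the forms of galactose and glucose, had a log2 fold change of 3.40 [2.72 to 4.26], and Pgm2, Minpp1 and Bpgm were at 0.96, 0.62 and 0.59. Lower in T cells were Pfkfb4 at -1.56 and Pfkfb2 at -0.69, whose enzymes set the level of fructose 2,6-bisphosphate, and Pgam2 at -0.69. Of 6 other sugar and lactate transporters, 2 were lower and none higher. Both had almost no transcript in T cells. Slc16a7, the monocarboxylate transporter MCT2, had 0.125 and 0.333 CPM in T cells with sgRNA-P1 and mock T cells, against 21.8, 19.0 and 21.3 CPM in B cells with sgRNA-P1, with sgRNA-P2 and in mock B cells. Slc2a6, which encodes GLUT6, had 0.726 and 0.513 CPM in those T cells, against 15.96, 17.6 and 17.6 CPM in those B cells. The lactate transporter forms thus divided, with Slc16a1 and Slc16a3 higher in T cells and Slc16a7 higher in B cells. Ldhd, the D-lactate dehydrogenase, had 5.11 and 5.62 CPM in T cells, against 0.477, 0.249 and 0.562 CPM in B cells. Of 6 other pentose phosphate genes, 2 were higher in T cells, among them H6pd, the enzyme of the endoplasmic reticulum, at 64.2 and 64.3 CPM in T cells and 24.3, 27.3 and 26.2 CPM in B cells. The second was Shpk, a sedoheptulose kinase gene, at log2 1.09. Of 17 other citrate cycle genes, only Idh2 passed, at 46.7 and 48.8 CPM in T cells and 20.2, 20.2 and 22.1 CPM in B cells. Of 5 other genes around pyruvate dehydrogenase, only Me2, a mitochondrial malic enzyme, passed, with a log2 fold change of 0.71.

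Of 26 regulators of these pathways, 6 were 1.5-fold or more higher in mock T cells and 4 lower, close to the 37% of all genes that passed in either direction. Myc, an activator of glycolytic genes, had 131 and 139 CPM in T cells with sgRNA-P1 and mock T cells, against 370, 354 and 344 CPM in B cells with sgRNA-P1, with sgRNA-P2 and in mock B cells. Txnip, a brake on glucose uptake, had 861 and 871 CPM in those T cells, against 455, 456 and 470 CPM in those B cells. Its relative Arrdc4 had 9.52 and 10.7 CPM in those T cells, against 0.104, 0.107 and 0.0296 CPM in those B cells. Egln3, a prolyl hydroxylase that marks hypoxia-inducible factors for decay, had 7.51 and 7.14 CPM in T cells and at most 0.104 CPM in B cells. Egln1, of the same family, was higher in T cells by log2 1.17 [1.03 to 1.31], and Egln2 was at -0.65 [-0.74 to -0.57]. The others past the size rule were Ppargc1b, a coactivator of mitochondrial genes, with 17.9 and 17.5 CPM in T cells against 8.36, 11.3 and 8.16 CPM in B cells, and, by log2 fold change, the forkhead factor gene Foxo1 at 0.68, the glucose sensor gene Mlxip at -0.64 and the mitochondrial deacetylase gene Sirt3 at -0.91. For each of these genes every T library lay to one side of every B library. They were picked by their fold change between the mock libraries, so this separation was partly set in advance. Its share over all genes was not computed.

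The targeted gene was lower with a guide in all 3 comparisons. Pou2f1 had 66.1 CPM in T cells with sgRNA-P1 and 138 CPM in mock T cells, and 91.1 and 86.5 CPM in B cells with sgRNA-P1 and sgRNA-P2, against 157 CPM in mock B cells. The guide term for Pou2f1 was log2 -0.92 (adjusted p = 5.663e-06 by edgeR's quasi-likelihood test). That term called 5 of 17581 genes (0.0284%) and none of the 48 carbon metabolism genes tested by edgeR's quasi-likelihood test. At an unadjusted p below 0.05 the edgeR fit held 1 of the 48, Pgls, at log2 -0.12, and 427 genes in all. DESeq2 called none of the 49 and held none of them at an unadjusted p below 0.05.

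No gene of the 49 was 1.5-fold apart between a guide library and its mock. At 5 CPM there were 44 genes in each comparison, and the size rule was passed by 0.11% of all genes in the T cell comparison, by 0.735% for sgRNA-P1 in B cells and by 0.278% for sgRNA-P2. The counting interval lay wholly within 1.5-fold for 42 of 44 genes in T cells with sgRNA-P1, all but Pdk2 and Mpc1. It did so for 43 of 44 in B cells with sgRNA-P1, all but Pdk3, and for 43 of 44 in B cells with sgRNA-P2, all but Hk2. The median log2 fold change of the 44 genes was -0.05 in the T cell comparison (all genes -0.02), -0.04 for sgRNA-P1 in B cells (all genes -0.01) and -0.01 for sgRNA-P2 (all genes -0.00). Both B cell comparisons used the same mock library.

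**Figure D4:**
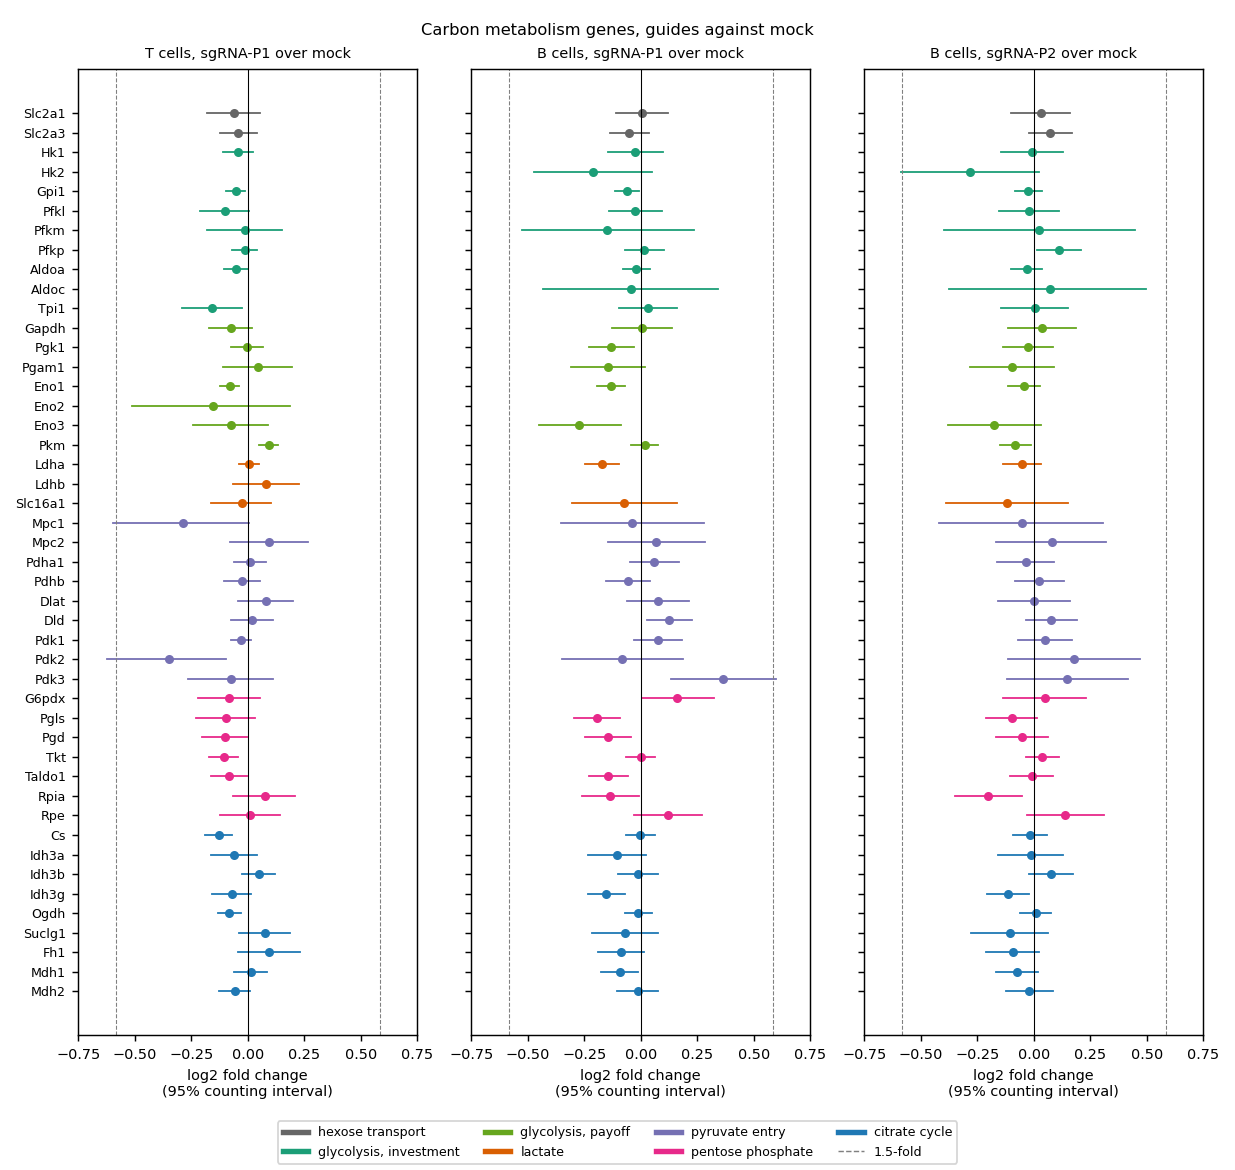
Log2 fold change of each guide over its mock (horizontal axes), with 95% counting intervals, for the genes at 5 CPM in each comparison, one panel per guide and cell type; dashed lines mark 1.5-fold. All points lie between -0.35 and 0.36, inside the dashed lines, and most intervals cross 0.

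In T cells with sgRNA-P1 the log2 fold changes ran from -0.35 to 0.10, and 40 of 44 genes were within 1.1-fold (90.9%, against 86.8% of all genes). The lowest were Pdk2, at 8.69 CPM with sgRNA-P1 and 11.1 CPM in mock T cells, or -0.35 [-0.62 to -0.10], Mpc1 at -0.29 [-0.60 to 0.00] and Tpi1 at -0.16 [-0.29 to -0.03]. The highest were Mpc2 at 0.10 [-0.08 to 0.27], Fh1 at 0.09 [-0.05 to 0.23] and Pkm at 0.09 [0.05 to 0.13]. The value of Mpc1 is uncertain because of its copy Mpc1-ps. The interval lay below 0 for 9 genes (10.4% of all genes) and above 0 for Pkm alone (4.37% of all genes). The 9 were Gpi1, Tpi1, Eno1, Pdk2, Pgd, Tkt, Taldo1, Cs and Ogdh. Fold changes of all genes fell with GC content here, with a Spearman correlation of -0.235 over 9666 genes. Median GC content was 52.5% for the carbon metabolism genes and 49.6% for all genes. Taking this dependence and that on length out put the median of the 44 genes at -0.022 instead of -0.047. Pkm then stood at 0.14, Pdk2 at -0.31 and Mpc1 at -0.30. Whether the intervals would still lie to one side of 0 was not tested.

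Pkm has a near-identical copy in the table. Gm6560, which was chosen after its values had been seen, matches Pkm over 1593 bases in GENCODE M21 at 95% identity or more. It had 6.14 CPM in T cells with sgRNA-P1 and 39.5 CPM in mock T cells, a log2 fold change of -2.68 [-2.97 to -2.42]. In B cells it had 11.8 CPM with sgRNA-P1 and 21.0 CPM with sgRNA-P2, against 19.8 CPM in mock. Summed, Pkm and Gm6560 had 399 CPM in T cells with sgRNA-P1 and 408 CPM in mock T cells, so the log2 fold change of Pkm with its copy was -0.03 [-0.07 to 0.01]. In B cells the sum was 239 and 233 CPM with sgRNA-P1 and sgRNA-P2, against 244 CPM in mock. Reads placed on Gm6560 and reads of Pkm cannot be told apart in these counts, and the difference of Gm6560 alone is uncertain. Pkm also shares 767 bases, 15.3% of its length, on the same strand with Gm49759, which the sum leaves out. Gm49759 had 33.9 and 33.5 CPM in T cells with sgRNA-P1 and mock T cells. It had 20.9, 20.8 and 20.2 CPM in B cells with sgRNA-P1, with sgRNA-P2 and in mock. Its part in the level of Pkm was not tested.

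**Figure D5:**
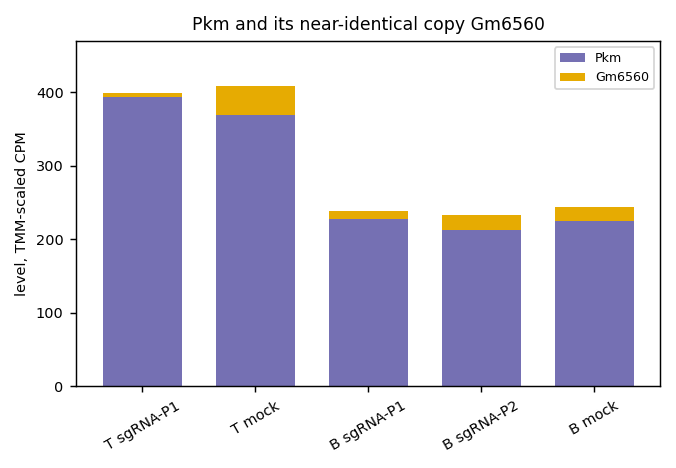
Stacked level of Pkm and its near-identical copy Gm6560 (vertical axis, TMM-scaled CPM) in each of the 5 libraries. The Gm6560 part is smallest in T cells with sgRNA-P1, at 6.14 CPM, and the stacked total is 399 CPM there and 408 CPM in mock T cells.

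In B cells with sgRNA-P1 the log2 fold changes ran from -0.27 to 0.36, and 33 of 44 genes were within 1.1-fold (75%, against 65.1% of all genes). Pdk3, a kinase of pyruvate dehydrogenase, was the highest, at 18.5 CPM with sgRNA-P1 and 14.3 CPM in mock, or 0.36 [0.14 to 0.60]. G6pdx followed at 0.16 [0.01 to 0.32] and Dld, the subunit shared by several dehydrogenase complexes, at 0.13 [0.03 to 0.23]. The lowest were Eno3 at -0.27 [-0.45 to -0.09], Hk2 at -0.21 [-0.47 to 0.05] and Pgls at -0.19 [-0.30 to -0.09]. The interval lay above 0 for 3 genes (17.7% of all genes) and below 0 for 11 (15.6%). Among the 11 were Ldha, at 133 CPM with sgRNA-P1 and 150 CPM in mock, or -0.17 [-0.25 to -0.10], and Eno1 at -0.13 [-0.19 to -0.07]. In this comparison the fold changes of all genes fell with GC content, with a Spearman correlation of -0.504 over 9703 genes, and the median GC content was 52% for the carbon metabolism genes and 49.4% for all genes. With the trend subtracted, Dld stood at 0.00, Eno3 at -0.17, Pgls at -0.10 and G6pdx at 0.24.

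In B cells with sgRNA-P2, 38 of 44 genes were within 1.1-fold (86.4%, against 79.9% of all genes). Pdk2 at 0.18, Pdk3 at 0.15 and Rpe, an epimerase of the pentose phosphate pathway, at 0.14 were the highest, and their counting intervals all crossed 0. Hk2 was the lowest, at 10.8 CPM with sgRNA-P2 and 13.2 CPM in mock, or -0.28 [-0.59 to 0.02], followed by Rpia at -0.20 [-0.35 to -0.05] and Eno3 at -0.17 [-0.38 to 0.03]. The interval lay above 0 for Pfkp alone, at 0.11 [0.01 to 0.21] (5.19% of all genes), and below 0 for Rpia, Pkm and Idh3g (6.37%). Of the regulators and other pathway genes around the 49, none passed 1.5-fold in any guide comparison and none was called by the guide term of the edgeR fit.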

How the data were processed

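Per the file headers, the authors deposited whole-number read counts per gene in 10 columns, with positions and the gene length in bases beside them. HISAT2, featureCounts and the builds hg38 and mm39 are named in the submitters' processing notes; their versions, the annotation, the strand setting and the handling of multimapping reads were not given in the sources used here. Per group, both columns were fixed proportions of a single count and were summed; no column was left out. Odd sums in 72% to 74.8% of genes with 1 to 9 reads fit read pairs with 1 read lost by rounding, so intervals (exact conditional, binomial or Poisson, 95%) used reads divided by 2.

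Counts were scaled by TMM factors of 0.9823 to 1.015 (edgeR 4.0.16, R 4.3.3). Log2 fold changes used a prior of 1 read and genes at 5 CPM or more in the higher library, with a size rule of 1.5-fold and a floor of 3 reads. DESeq2 1.42.0, other scalings, filters and priors, single columns, single libraries left out and a length and GC trend (quadratic) were alternatives. The fit and the intervals were first tested on simulated data. Copies were sought with BLAST+ 2.17.0 in GENCODE M21. Shares and other values were computed in Python 3.11.15 with scipy 1.17.1.

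The members, lists and rules were chosen with earlier results of these data known. By rule, values were given for genes 1.5-fold apart between mock T and mock B cells, for families of alternative forms, and for the 3 highest and 3 lowest genes of each guide comparison; other pathway genes were to be named where past 1.5-fold. Gm6560, Gm49759, Niban3, Csnk1d, Mpc1-ps, the genes counted by intervals and further members given with single values were named outside it. They were named after their values had been seen. PCR reads without molecular identifiers are not independent molecules, so intervals and floors cover counting error only.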

Additional observations from a re-analysis of the deposited data

How the results depend on the processing

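Between mock T and mock B cells, the count of genes 1.5-fold or more apart was 16, and 13 to 17 under the other settings. DESeq2 size factors, total reads and a prior of 5 reads gave the same 16 genes. With no filter on level Slc16a3 joined them, and at 20 CPM Eno2, Hk2 and Aldoc left. Subtracting the length and GC trend removed Eno1 and Pkm and added Pgk1, and took Hk1 to 1.002, Pfkp to 0.81, Pgls to -1.47 and Rpia to -0.86 on the log2 scale. Either column alone gave 16 and 17 genes, but the columns are portions of 1 count, so this tests no stability. The number of genes 1.5-fold apart was 0 in each guide comparison under all other scalings, filters and priors and with the trend subtracted. The cell type term called 37 genes in the edgeR fit, 32 by DESeq2, 33 with total reads as library size, 35 without a filter and 27 to 39 when each library was left out in turn, lowest without T cells with sgRNA-P1; no call changed direction. The 10 genes not called in every setting were Cs, Dld, Gpi1, Mpc2, Pdhb, Pdk2, Pfkl, Pgam1, Taldo1 and Tkt. The guide term called 0 of the genes in every setting. The number of families led by different genes was 1 with division by length, and 0 without it. Summing Pkm with Gm6560, an alternative chosen after seeing the data, moved its log2 fold change with sgRNA-P1 in T cells to -0.03 from 0.09. The cause of these shifts was not tested. No paired analysis was possible because both columns of a group are portions of 1 library. Eno2, Hk3, Slc16a3 and Aldoc rest on few reads.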
